A study of Mus musculus with 8 samples.

Results

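The genes described here encode sodium, calcium, HCN and TRP channels of the mouse brain. They are the 46 of 17613 genes in the deposited read count table whose symbol marks a voltage-gated sodium channel subunit (Scn followed by a number and a or b), a voltage-gated calcium channel subunit (Cacna, Cacnb), a hyperpolarization-activated channel (Hcn) or a TRP channel of the TRPC, TRPM or TRPV class. The rule is by name, so it also takes Trpc4ap, an adaptor protein that is not a channel, and it leaves out the sodium channel gene listed under the older symbol Scn2a1, whose values are given beside the others. The samples were 8 libraries of polyadenylated RNA from brains of C57BL/6 mice, 4 labelled WT, from wild type mice, and 4 labelled KO, from mice with the genotype Uhrf2 KO. UHRF2, the protein of the targeted gene, recognises modified cytosines on chromatin, and the title of the series names local 5-methylcytosine and spontaneous seizures. The labels give no age, sex or allele design, and do not say whether each library is a separate animal, so p-values measure the spread between these libraries.

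Neurons fire because voltage-gated sodium channels open on depolarization, and they release transmitter because voltage-gated calcium channels let calcium in at the terminal. HCN channels open on hyperpolarization and set how easily a cell returns to threshold, while TRP channels are cation channels gated by lipids, temperature, osmotic state or intracellular messengers. Each large pore-forming subunit, called alpha or alpha1, works with smaller auxiliary subunits that set how many channels reach the membrane. Variants in Scn1a, Scn8a and Cacna1a are among the known causes of epilepsy.

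Library totals ran from 11891350 to 19773921 counts, and levels are given as CPM, counts scaled to the size of each library. A count of 3 corresponded to between 0.152 and 0.252 CPM. The targeted gene, Uhrf2, stood at 58.0, 47.7, 57.2 and 58.9 CPM in WT and at 86.4, 88.6, 88.4 and 91.8 CPM in KO replicates 1 to 4. All 4 KO libraries lay above all 4 WT libraries, which goes against the label of a knockout, and counts per gene do not separate the deleted part from the rest. The groups are therefore named by their labels, and every direction rests on those labels. Pairs of libraries within a group were compared by a chi-square test of their counts. The statistic was 2.45 to 5.06 times its degrees of freedom, so no pair was a repeat of 1 library, and all 8 were kept. Markers of neurons and glia were abundant in every library, with 8 markers of excitatory neurons summing to 3504 to 4032 CPM and 8 of astrocytes to 5379 to 5835 CPM.

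No channel gene passed the test between the libraries labelled KO and WT. All 46 passed the filter on low counts and were tested. With p-values of edgeR's quasi-likelihood test adjusted by Benjamini-Hochberg over 15902 genes, 0 channel genes were higher and 0 lower at the threshold of 0.05, where 1.43% of all tested genes were called, 1.14% higher and 0.289% lower. DESeq2 and limma-voom also called 0. These models held the group alone. At an unadjusted p under 0.05 edgeR gave 4 channel genes, DESeq2 3 and limma-voom 4. The 4 by edgeR were Cacnb1, which was higher, and Trpc2, Cacna1d and Trpm7, which were lower. They make 8.7% of the list, where 12.6% of all tested genes were under that value, 6.45% higher and 6.16% lower. The median log2 fold change (KO over WT) was 0.017 over the channel genes and -0.0049 over all tested genes. It was positive for 28 of the 46 channel genes and for 48.0% of all tested genes. The fitted changes ran from -0.17 for Scn9a to 0.19 for Hcn4, so none was larger than 1.14-fold in either direction.

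The fitted intervals give the changes compatible with these libraries, each at 95% for its own gene and not adjusted for the number of genes. The 95% interval of the fold change lay between 1.5-fold lower and 1.5-fold higher for each of the 46 genes, and between 1.2-fold lower and 1.2-fold higher for 29 of them. The widest interval was that of Cacna1s, from 0.682 to 1.195 times the WT level, at 25 to 45 counts a library. The interval of Scn8a, at 4324 to 7072 counts a library, ran from 0.952 to 1.068 times. In counts simulated for the same comparison over 15902 genes, 46% of 50 genes changed by 1.2-fold and 90% of 50 changed by 1.5-fold were recovered, for genes with an average log2 CPM above 2.

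**Figure D1:**
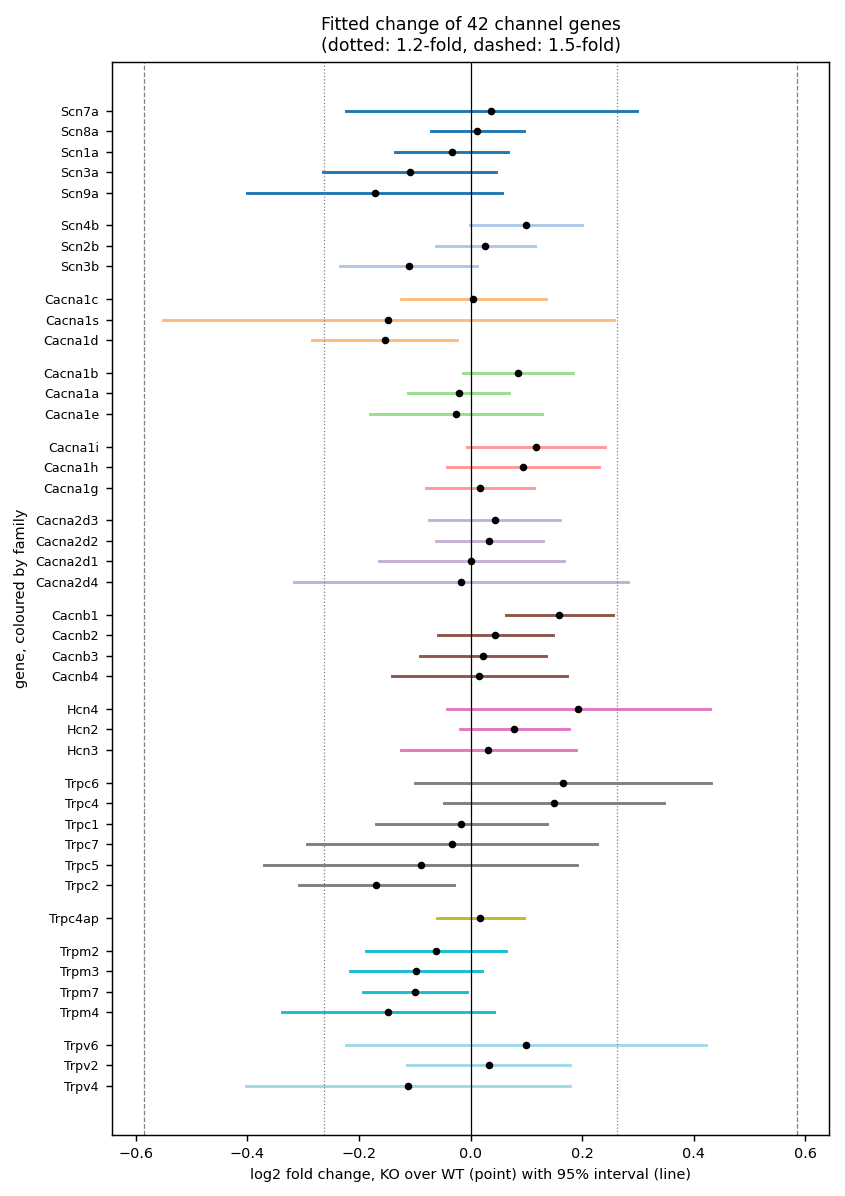
Fitted log2 fold change (KO over WT) for 42 of the 46 channel genes (points) with its 95% interval (lines), by family, with dotted and dashed lines at 1.2-fold and 1.5-fold. Every interval drawn lies inside the dashed lines, and the points run from -0.17 to 0.19.

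**Figure D2:**
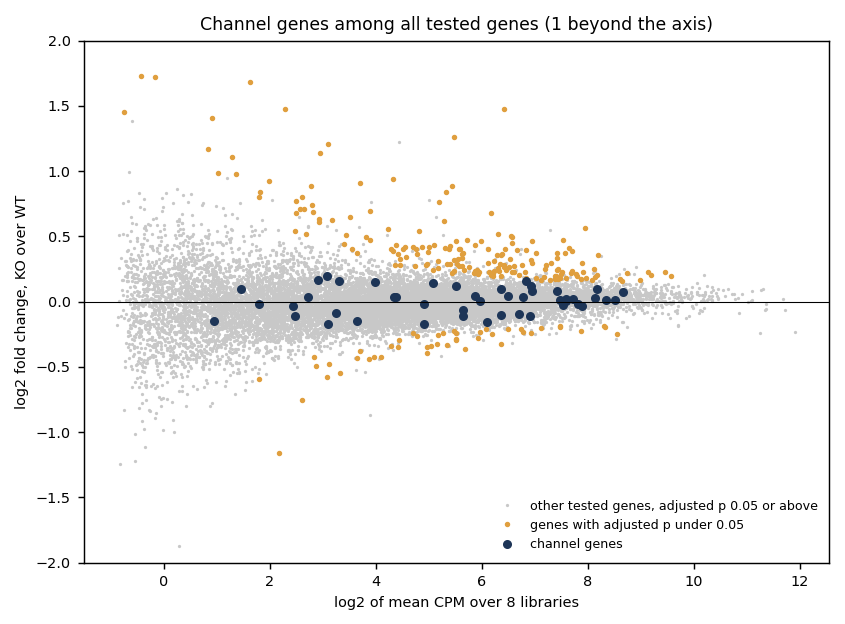
Log2 fold change of KO over WT against log2 mean CPM for all 15902 tested genes, with genes at an adjusted p under 0.05 in orange and the 46 channel genes in dark blue. The channel genes sit within the band of genes that did not pass, at mean levels from 1.94 to 407 CPM.

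The calcium channel subunit Cacnb1 and the channel kinase Trpm7 were the only 2 of the 46 genes in which the groups did not overlap, 4.35% of the list, where the groups did not overlap in 7.67% of all tested genes, 4.28% with KO higher and 3.4% with KO lower. Cacnb1 encodes a cytoplasmic beta subunit that carries alpha1 subunits to the membrane, and lies on chromosome 11 from 98001508 to 98023034 (GRCm38). It stood at 104, 108, 105 and 114 CPM in WT and at 116, 117, 121 and 127 CPM in KO replicates 1 to 4. Each KO library was above the highest WT library, by as little as 1.995 CPM for KO replicate 1. The fitted log2 fold change was 0.16 (SE 0.05), or 1.12-fold with a 95% interval of 1.045 to 1.193. With the group alone in the model, Cacnb1 did not pass (edgeR adjusted p = 0.108). It passed only when the replicate number was added to the model as a block, as given under the processing alternatives. Trpm7, which joins a magnesium- and calcium-permeable pore to a kinase domain and lies on chromosome 2 from 126791565 to 126876230, stood at 90.1, 83.0, 85.3 and 84.0 CPM in WT and at 79.0, 78.7, 78.8 and 82.8 CPM in KO replicates 1 to 4. The highest KO library, replicate 4, was 0.162 CPM below the lowest WT library, and the log2 fold change was -0.10 (SE 0.04, edgeR adjusted p = 0.358). Among all tested genes ordered by p in the same fit, Cacnb1 was at place 382 and Trpm7 at place 1665.

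The sequences before the starts of these genes are shown with that of Scn1a, because the series concerns cytosine methylation, which in mammals falls mainly on CG pairs. Each run is the 250 bases before a RefSeq start (GRCm38.p6), read 5′ to 3′ on the gene's strand, with every CG in capitals. Cacnb1 has a pair of listed starts, and the runs lie at chr11:98022628-98022877 (minus strand, 26 CG) and chr11:98018373-98018622 (minus strand, 1 CG). The run of Trpm7 lies at chr2:126876262-126876511 (minus strand, 26 CG) and that of Scn1a at chr2:66440838-66441087 (minus strand, 4 CG).
Cacnb1 upstream start: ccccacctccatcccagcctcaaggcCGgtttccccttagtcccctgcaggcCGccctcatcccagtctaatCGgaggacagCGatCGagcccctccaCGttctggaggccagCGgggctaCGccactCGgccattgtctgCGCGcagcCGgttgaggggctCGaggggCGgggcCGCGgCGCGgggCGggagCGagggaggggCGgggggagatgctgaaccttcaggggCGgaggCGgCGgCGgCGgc
Cacnb1 inner start: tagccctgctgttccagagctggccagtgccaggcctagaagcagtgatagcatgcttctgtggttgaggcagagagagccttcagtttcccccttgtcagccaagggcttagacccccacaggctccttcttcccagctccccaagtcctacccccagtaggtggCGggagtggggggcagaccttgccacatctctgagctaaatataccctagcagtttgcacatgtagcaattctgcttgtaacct
Trpm7: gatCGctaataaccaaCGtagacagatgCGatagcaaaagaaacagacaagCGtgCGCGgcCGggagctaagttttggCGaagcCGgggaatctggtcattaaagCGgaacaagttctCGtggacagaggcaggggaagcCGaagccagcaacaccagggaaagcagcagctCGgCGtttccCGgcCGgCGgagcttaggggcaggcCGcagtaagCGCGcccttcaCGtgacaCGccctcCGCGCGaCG
Scn1a: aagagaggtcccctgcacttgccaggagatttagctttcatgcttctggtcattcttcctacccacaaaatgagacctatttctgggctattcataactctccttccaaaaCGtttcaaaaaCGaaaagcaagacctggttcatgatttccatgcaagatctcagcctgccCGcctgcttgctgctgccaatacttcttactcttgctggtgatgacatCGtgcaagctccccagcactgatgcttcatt
The upstream start of Cacnb1 and the start of Trpm7 are dense in CG, and the other runs are poor in it. Summed over exon records of the gene in GENCODE M21, at most 21 bases of the upstream Cacnb1 run and 3 of the Scn1a run were exonic. The rest of these runs lay outside exons of their gene. Each Cacnb1 run lies within the span of the gene in GENCODE, which ends at 98023034. RefSeq windows of 300 bases, from 250 before to 50 after a start, were found for 34 of the 46 genes, with 46 windows in all. CG was counted on these windows, and since CG reads the same on both strands, 1 strand was searched. The windows held between 1 CG, in Trpv6, and 63, in the inner start of Cacna1d, with a median of 15.5 where all 32851 windows of the same table, which include non-coding genes, had a median of 7. A GC content over 50% with a ratio of observed to expected CG over 0.6 was met by 47.8% of the channel windows and by 33.3% of all windows. Methylation was not measured in these libraries.

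No sodium channel alpha gene passed the test. Of 6 measured, 3 had a positive and 3 a negative fold change, and the median was -0.011 on the log2 scale. Scn8a, the alpha subunit of axon initial segments and nodes of Ranvier, stood at 364, 354, 353 and 377 CPM in WT and at 359, 355, 359 and 387 CPM in KO replicates 1 to 4. Scn1a, which inhibitory interneurons rely on and whose loss causes Dravet syndrome, stood at 248, 226, 228 and 256 CPM in WT and at 235, 222, 229 and 249.8 CPM in KO replicates 1 to 4. The groups overlapped in both, with WT replicate 4 the highest WT library and KO replicate 4 the highest KO library in each. The log2 fold change was 0.012 (SE 0.04) for Scn8a and -0.034 (SE 0.05) for Scn1a (edgeR adjusted p = 0.942 and 0.844). The interval for Scn1a ran from 0.911 to 1.048 times the WT level. Scn2a1, the alpha subunit of excitatory axons that the name rule leaves out, stood at 338, 292, 299 and 329 CPM in WT and at 321, 269.9, 313 and 316 CPM in KO replicates 1 to 4, with a log2 fold change of -0.043 (SE 0.06) and an adjusted p of 0.832 in the same edgeR fit.

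Levels of different genes were compared as CPM per kilobase of the longest protein-coding transcript. On that scale the alpha genes ranged widely in the WT libraries. Scn8a, at 31.7 ± 0.98 (SD, n = 4), and Scn1a, at 28.6 ± 1.77, were the highest of the 6 genes, and the difference between them was slightly over their summed SDs. Scn2a1 was above both, at 35.2 ± 2.53. Scn3a, the alpha subunit most used in the fetal brain, followed at 5.44 ± 0.295. Scn9a, known from pain-sensing neurons, and Scn7a, a sodium-level sensor of circumventricular glia, stood at 0.924 ± 0.0462 and 0.894 ± 0.122 on this scale. Scn9a stood at 8.91, 8.64, 9.09 and 9.71 CPM in WT and at 7.83, 7.26, 7.40 and 9.88 CPM in KO replicates 1 to 4. In Scn9a 3 KO libraries were below the lowest WT library and replicate 4 was above the highest, and the gene did not pass. The log2 fold change was -0.17 (SE 0.11, edgeR adjusted p = 0.555). Scn3a, at 52.0 ± 2.82 CPM over the WT and at 48.1 ± 5.85 CPM over the KO libraries (SD, n = 4), showed the same arrangement of KO libraries, and Scn7a stood at 6.56 ± 0.899 CPM over the WT and at 6.66 ± 0.799 CPM over the KO libraries (SD, n = 4).

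The alpha genes lie largely side by side. Scn3a, Scn2a1, Scn1a, Scn9a and Scn7a occupy 1.33 Mb of chromosome 2, from 65457118 to 66784914 on GRCm38, in that order. Their log2 fold changes, in the same order, were -0.11, -0.043, -0.034, -0.17 and 0.037, and 0 of the 5 passed. Of the beta genes, Scn2b and Scn4b are 8.32 kb apart on chromosome 9 and Scn3b lies on the same chromosome, within a span of 4.88 Mb.

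No sodium channel beta gene passed. Beta subunits are single-pass membrane proteins of the immunoglobulin superfamily that modify gating and cell adhesion. Per kilobase, Scn2b at 59.7 ± 2.97 (SD, n = 4) and Scn4b at 55.7 ± 3.78 had overlapping spreads in WT libraries, and Scn3b was lower at 30.1 ± 1.71. The median log2 fold change of the 4 genes was 0.051. Scn4b, which supports resurgent current and is abundant in striatal neurons, stood at 265, 287, 259 and 299 CPM in WT and at 280.0, 307, 306 and 297 CPM in KO replicates 1 to 4. Of the KO libraries, 2 were above all WT libraries and the groups overlapped, at a log2 fold change of 0.10 (SE 0.05, edgeR adjusted p = 0.4). Scn3b, a beta subunit that binds alpha subunits without a covalent bond, stood at 133, 124, 116 and 126 CPM in WT and at 120.4, 102, 115 and 125 CPM in KO replicates 1 to 4. KO replicates 2 and 3 were below all WT libraries, and the log2 fold change was -0.11 (SE 0.06, edgeR adjusted p = 0.46). Scn2b, which binds alpha subunits covalently, stood at 278 ± 13.8 CPM over the WT and at 283 ± 8.45 CPM over the KO libraries (SD, n = 4). The 10 striatal markers had positive fold changes in all 10 cases, and 3 of them, Drd1a, Ppp1r1b and Adcy5, passed. Of all tested genes, 48.0% were positive and 1.14% were called higher. The summed level of the striatal markers was 1060 to 1171 CPM in WT and 1198 to 1269 CPM in KO libraries. Their part in the Scn4b level was not tested. In whole-brain RNA, a change in the number of cells of a type and a change in RNA per cell cannot be told apart.

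**Figure D3:**
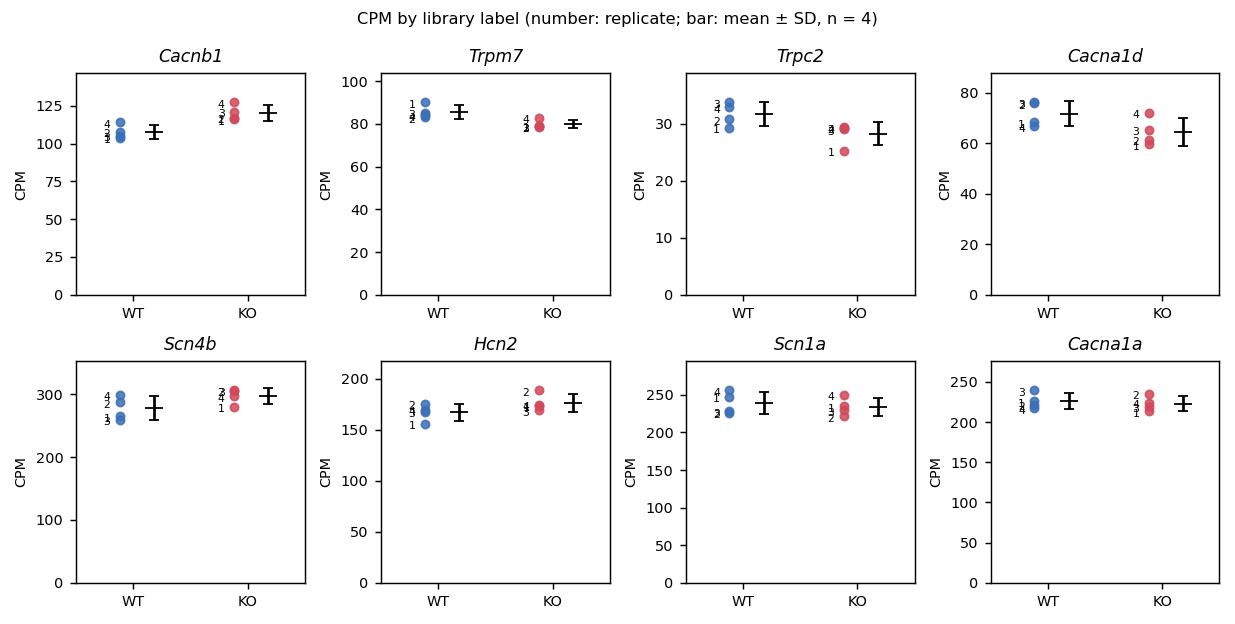
CPM of 8 channel genes in each library (points, numbered by replicate) with the mean and SD of 4 libraries (bars), on axes that start at 0. The groups are apart in Cacnb1 and Trpm7 and overlap in Trpc2, Cacna1d, Scn4b, Hcn2, Scn1a and Cacna1a.

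Genes of L-type calcium channels (CaV1), which couple calcium entry to gene expression and pacemaking, gave 0 calls among 3. Cacna1d, the L-type subunit that opens at more negative voltages, stood at 68.3, 75.7, 76.3 and 66.8 CPM in WT and at 59.7, 61.3, 65.3 and 72.1 CPM in KO replicates 1 to 4. In 3 of 4 KO libraries it was below all WT libraries, and KO replicate 4 fell among them. The log2 fold change was -0.15 (SE 0.06), with an interval from 0.821 to 0.984 times the WT level and an adjusted p of 0.293 by edgeR. Cacna1c, the other neuronal L-type subunit and a known psychiatric risk gene, stood at 62.6 ± 3.10 CPM over the WT and at 62.9 ± 6.04 CPM over the KO libraries (SD, n = 4), at a log2 fold change of 0.0053 (SE 0.06). Cacna1s, the subunit of skeletal muscle, was near the lower limit of the data, and stood at 2.52, 1.78, 2.25 and 1.62 CPM in WT and at 1.94, 1.72, 1.64 and 2.07 CPM in KO replicates 1 to 4. Per kilobase, the order in WT libraries was Cacna1d at 8.26 ± 0.569, Cacna1c at 4.76 ± 0.236 and Cacna1s at 0.327 ± 0.0668, with gaps wider than the spreads. Skeletal muscle markers in the table, Acta1 and Mylpf, summed to 5.12 to 7.41 CPM in WT and 5.59 to 7.21 CPM in KO libraries.

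Genes of the CaV2 channels, which drive transmitter release, were all well expressed and gave 0 calls among 3. Cacna1a, on chromosome 8 from 84388440 to 84640246, encodes the P/Q-type subunit of most central synapses, and mutations in it cause absence epilepsy and ataxia in mice. It stood at 226, 221, 239.9 and 217 CPM in WT and at 214, 235, 219 and 224 CPM in KO replicates 1 to 4. KO replicate 1 was below all WT libraries and the other KO libraries fell among them, at a log2 fold change of -0.021 (SE 0.04) with an interval from 0.925 to 1.049 times the WT level (edgeR adjusted p = 0.896). Cacna1b, the N-type subunit, stood at 118, 119, 118 and 121 CPM in WT and at 131, 119, 121 and 136 CPM in KO replicates 1 to 4. The WT libraries of Cacna1b lay within 3.47 CPM of each other, and KO replicates 1 and 4 were above them, at a log2 fold change of 0.085 (SE 0.05, edgeR adjusted p = 0.48). Cacna1e, the R-type subunit, stood at 186 ± 6.96 CPM over the WT and at 182 ± 22.1 CPM over the KO libraries (SD, n = 4), and its KO libraries ran from 156 to 209 CPM, a wider range than in WT. Per kilobase in WT libraries, Cacna1a led at 28.5 ± 1.24, and Cacna1e at 12.5 ± 0.466 and Cacna1b at 12.2 ± 0.157 could not be ordered.

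The T-type (CaV3) genes carry low-threshold currents that underlie burst firing and thalamic spike-and-wave activity. All 3 had positive fold changes, where 48.0% of all tested genes did, and 0 passed. Cacna1g turned negative (-0.011) with GC content and length trends removed. Cacna1i, prominent in the reticular thalamus, stood at 114, 114, 126 and 116 CPM in WT and at 113, 126, 128 and 142 CPM in KO replicates 1 to 4. Cacna1h, the nickel-sensitive T-type subunit, stood at 74.8, 85.1, 85.7 and 72.5 CPM in WT and at 78.2, 84.3, 83.2 and 94.4 CPM in KO replicates 1 to 4. Cacna1g, the subunit of thalamic relay cells, stood at 176, 177, 191 and 166 CPM in WT and at 174, 186, 176 and 183 CPM in KO replicates 1 to 4. KO replicate 4 was the highest library for Cacna1i and Cacna1h, and KO replicate 2 the highest KO library for Cacna1g. Log2 fold changes were 0.12 (SE 0.06), 0.094 (SE 0.06) and 0.016 (SE 0.05), with edgeR adjusted p of 0.431, 0.595 and 0.932. Per kilobase, Cacna1g led in WT libraries at 21.2 ± 1.25, before Cacna1i at 12.009 ± 0.598 and Cacna1h at 9.66 ± 0.832. Thalamic markers gave 0 calls among 9, with summed levels of 482 to 537 CPM in WT and 453 to 535 CPM in KO libraries.

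Auxiliary subunits of calcium channels showed small differences, with 0 calls among 8 genes. The alpha2delta subunits are extracellular proteins that raise surface channel number, and the products of Cacna2d1 and Cacna2d2 bind gabapentin. All 4 alpha2delta genes had log2 fold changes between -0.018 and 0.043 and 0 passed. Cacna2d1, also a synapse-forming receptor for thrombospondin, stood at 214, 189, 171 and 197 CPM in WT and at 199, 168, 191 and 212 CPM in KO replicates 1 to 4. Cacna2d2 stood at 108, 103, 115 and 104 CPM in WT and at 111, 112, 106 and 112 CPM in KO replicates 1 to 4. Cacna2d3 stood at 88.6, 89.9, 80.1 and 97.6 CPM in WT and at 95.004, 85.7, 92.8 and 93.2 CPM in KO replicates 1 to 4. The groups overlapped in each, and the adjusted p was 0.998, 0.8292 and 0.819 by edgeR. Cacna2d4, known from the retina, stood at 3.46 ± 0.476 CPM over the WT and at 3.48 ± 0.175 CPM over the KO libraries (SD, n = 4). Per kilobase in WT libraries, Cacna2d1 at 25.9 ± 2.38 and Cacna2d3 at 24.1 ± 1.94 had overlapping spreads, Cacna2d2 stood at 18.5 ± 0.936, and Cacna2d4 stood at 0.596 ± 0.0821.

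Of the 4 beta genes of calcium channels 0 passed. All 4 had positive fold changes, where 48.0% of all tested genes did, at a median log2 value of 0.033. Cacnb3 turned negative (-0.016) with GC content and length trends removed. Only Cacnb1, given above, had groups that did not overlap. Cacnb3, often found with N-type channels, stood at 186, 207, 189 and 181 CPM in WT and at 174, 194, 198 and 207 CPM in KO replicates 1 to 4. Cacnb2, the main beta subunit of the heart, stood at 58.2, 59.2, 56.2 and 57.4 CPM in WT and at 57.9, 58.0, 58.3 and 64.0 CPM in KO replicates 1 to 4. Cacnb4, the subunit whose loss gives the lethargic mouse its absence seizures, shares 16.0% of its exon bases with A430018G15Rik on the opposite strand. Cacnb4 stood at 321 ± 31.4 CPM over the WT and at 325 ± 25.3 CPM over the KO libraries (SD, n = 4). Log2 fold changes of these 3 were 0.022 (SE 0.05), 0.044 (SE 0.05) and 0.016 (SE 0.07). Per kilobase in WT libraries the order was Cacnb3 at 69.7 ± 4.11, Cacnb4 at 39.1 ± 3.81, Cacnb1 at 31.7 ± 1.32 and Cacnb2 at 14.6 ± 0.322.

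**Figure D4:**
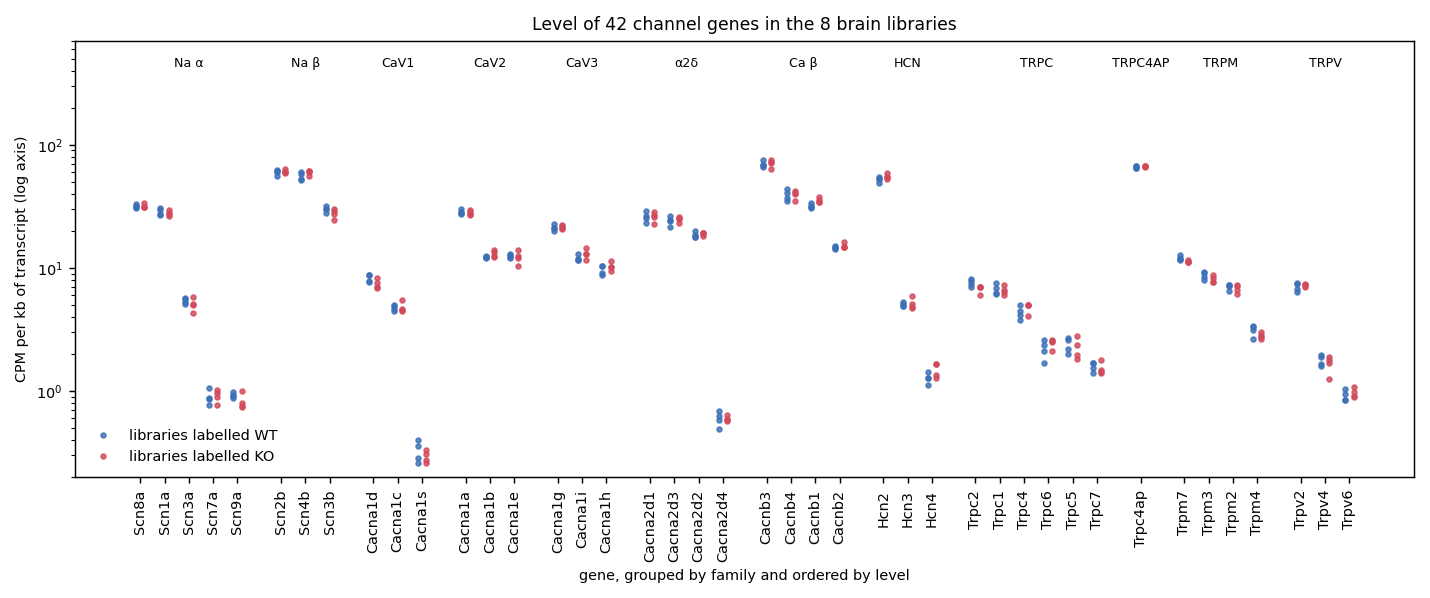
CPM per kilobase of transcript (log axis) of 42 channel genes in the 4 WT (blue) and 4 KO (red) libraries, grouped by family. Levels run from below 1, as in Cacna1s, to 69.7 for Cacnb3 as means of the WT libraries, and the colours lie side by side in each gene.

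HCN genes had positive fold changes in 4 of 4 cases, where 48.0% of all tested genes did, and 0 passed. Hcn2, widely expressed and dense in the thalamus, stood at 156, 175, 168 and 169.5 CPM in WT and at 174, 189, 169 and 174 CPM in KO replicates 1 to 4. KO replicate 2 was the highest library and the other KO libraries fell among the WT libraries. Hcn4, the main subunit of cardiac pacemaker cells, stood at 6.90, 7.84, 7.84 and 8.68 CPM in WT and at 10.1, 8.22, 7.77 and 10.1 CPM in KO replicates 1 to 4. The log2 fold change was 0.078 (SE 0.05) for Hcn2 and 0.19 (SE 0.11) for Hcn4 (edgeR adjusted p = 0.522 and 0.512). With GC content and length trends removed, it was 0.0202 for Hcn2 and 0.1683 for Hcn4. Hcn3, of whose exon bases 17.1% are shared with Pklr on the opposite strand, stood at 20.1 ± 0.716 CPM over the WT and at 20.6 ± 2.05 CPM over the KO libraries (SD, n = 4), and its fold change, 0.032 (SE 0.07), turned negative (-0.032) without KO replicate 1. The summed level of the 4 genes was 217.8 to 234 CPM in WT and 235 to 247 CPM in KO libraries, a gap of 0.81 CPM. Among the summed levels of the families, only this had groups that did not overlap. No single HCN gene did, and in all tested genes the share was 7.67%. Per kilobase, Hcn2 made up 85.9% ± 0.776 of the HCN total in WT and 85.8% ± 1.49 in KO libraries (SD, n = 4).

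TRPC channels open downstream of phospholipase C, and 0 of the 7 TRPC genes passed, with 3 positive and 4 negative fold changes. The row named Trpc2 has the identifier ENSMUSG00000070425, which GENCODE M21 names Xntrpc, a locus that shares exon bases with Xndc1 (42.3% of its exon bases) and with the gene now named Trpc2 (49.4%). Reads of this row cannot be assigned to Trpc2 alone. It stood at 29.3, 30.8, 33.8 and 32.9 CPM in WT and at 25.2, 29.2, 29.0 and 29.4 CPM in KO replicates 1 to 4. In 3 KO libraries it was below all WT libraries, and the log2 fold change was -0.17 (SE 0.07, edgeR adjusted p = 0.278).

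The groups also overlapped in the TRPC genes that follow. Trpc1, a subunit that joins other TRPC proteins, stood at 30.5 ± 2.88 CPM over the WT and at 29.9 ± 2.30 CPM over the KO libraries (SD, n = 4). Trpc4, which responds to G protein signals, stood at 15.0 ± 1.83 CPM over the WT and at 16.5 ± 1.6047 CPM over the KO libraries (SD, n = 4). Its close relative Trpc5 stood at 9.87 ± 1.39 CPM over the WT and at 9.26 ± 1.81 CPM over the KO libraries (SD, n = 4). Trpc6, gated by diacylglycerol, stood at 7.18 ± 1.27 CPM over the WT and at 7.94 ± 0.714 CPM over the KO libraries (SD, n = 4). Trpc7, of the same subgroup, stood at 5.55 ± 0.486 CPM over the WT and at 5.36 ± 0.63 CPM over the KO libraries (SD, n = 4). Log2 fold changes of these 5 ran from -0.09 for Trpc5 to 0.17 for Trpc6, and the WT SD was larger than the difference between means in each. Trpc4ap, the adaptor that the name rule takes in, stood at 214, 208, 207 and 214 CPM in WT and at 214, 214, 209.6 and 216 CPM in KO replicates 1 to 4. These 8 libraries lay within 9.002 CPM of each other, and the fitted change of Trpc4ap had the smallest SE of the 46 genes, at 0.018 (SE 0.04) on the log2 scale.

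All 4 TRPM genes had negative fold changes, where 48.0% of all tested genes had positive ones, and 0 passed. The sign held in each of 17 alternatives, which refit the same libraries and so add no independent support for these genes. Trpm7, the highest of them per kilobase at 12.045 ± 0.446 in WT libraries, is given above. Trpm3, a heat- and steroid-gated channel also made in choroid plexus, stood at 114, 97.9, 105 and 111 CPM in WT and at 109, 94.5, 94.5 and 103 CPM in KO replicates 1 to 4. KO replicates 2 and 3 were below all WT libraries, and the log2 fold change was -0.10 (SE 0.06, edgeR adjusted p = 0.503). With GC content and length trends removed, Trpm7 went from -0.0995 to -0.0456 and Trpm3 from -0.0976 to -0.0687. Trpm2, opened by ADP-ribose in oxidative stress and made in microglia, stood at 51.3 ± 2.76 CPM over the WT and at 49.3 ± 3.74 CPM over the KO libraries (SD, n = 4). Trpm4, a calcium-activated channel for monovalent cations, stood at 13.2 ± 1.43 CPM over the WT and at 11.9 ± 0.72 CPM over the KO libraries (SD, n = 4). The summed level of the 4 genes was 247 to 263 CPM in WT and 233 to 250.4 CPM in KO libraries, so the groups overlapped. Choroid plexus markers had negative fold changes in 11 of 12 cases with 0 calls, and their summed levels were 1575 to 2125 CPM in WT and 1556 to 1750.4 CPM in KO libraries. Microglial markers gave 0 calls among 8, at 394 to 442 CPM in WT and 393 to 415 CPM in KO libraries. Their part in the TRPM levels was not tested.

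TRPV genes were the least abundant family, with summed levels of 27.6 to 30.5 CPM in WT and 27.6 to 30.4 CPM in KO libraries. Trpv2, a channel of neurons and macrophages, stood at 18.5, 22.1, 19.8 and 21.7 CPM in WT and at 21.6, 21.1, 20.5 and 21.0 CPM in KO replicates 1 to 4. Trpv4, an osmotically and mechanically gated channel of choroid plexus and astrocytes, stood at 6.05, 5.15, 5.39 and 6.35 CPM in WT and at 6.11, 5.80, 4.02 and 5.41 CPM in KO replicates 1 to 4. Trpv6, a calcium-selective channel of absorbing epithelia, stood at 3.03, 2.45, 2.75 and 2.46 CPM in WT and at 2.68, 2.61, 3.17 and 2.87 CPM in KO replicates 1 to 4. The groups overlapped in all 3 and 0 passed, at 0.033 (SE 0.07) for Trpv2, -0.11 (SE 0.14) for Trpv4 and 0.10 (SE 0.15) for Trpv6 on the log2 scale. At 36 to 108 counts a library, the intervals of Trpv4 and Trpv6 ran from 0.756 to 1.131 and from 0.857 to 1.341 times the WT level. Changes inside these intervals are compatible with the data.

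Libraries of 1 group also differed from each other in the channel genes. KO replicate 4 was the highest KO library for 25 of the 46 genes, among them Scn8a, Cacna1b, Cacna1c, Cacna1e, Cacna1h, Cacna1i, Cacnb1, Cacnb2 and Cacnb3, and KO replicate 2 was the lowest for 21. Relative to the WT mean of each gene, the median over the 46 genes was -0.044 on the log2 scale in KO replicate 2, -0.003 in replicate 3, 0.016 in replicate 1 and 0.06 in replicate 4. The same median ran from -0.034 in WT replicate 2 to 0.035 in WT replicate 4. The 46 genes together made up 4644 to 4816 CPM in WT and 4686 to 4996 CPM in KO libraries. The coefficient of variation within a group had a median over genes of 6.32% in WT and 7.64% in KO libraries, and reached 20.4% for Cacna1s in WT and 19.5% for Trpc5 in KO libraries.

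**Figure D5:**
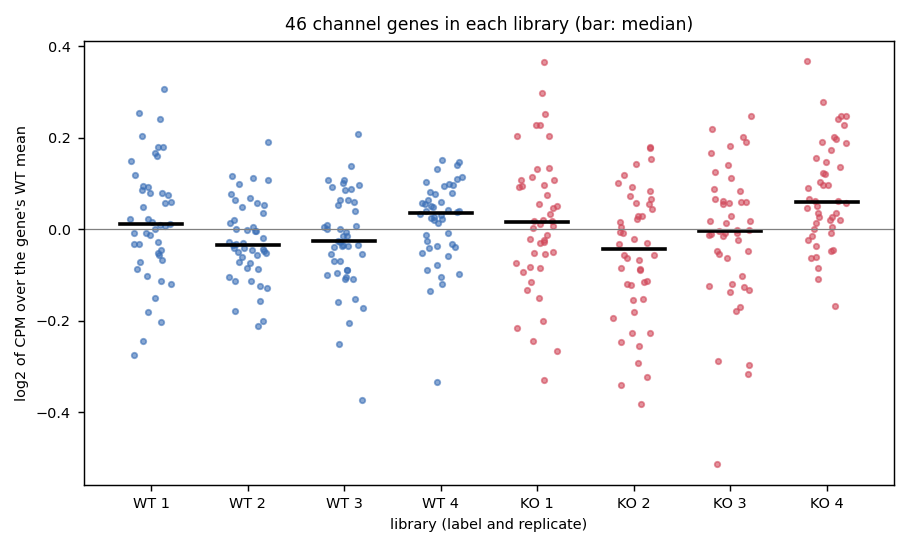
Log2 ratio of the CPM of each of the 46 channel genes to its mean over the WT libraries (points) in each library, with the median over genes (bars). The medians of the KO libraries run from -0.044 in replicate 2 to 0.06 in replicate 4, and those of the WT libraries from -0.034 to 0.035.

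Related genes were read from 6 lists, 3 of them of channel partners and 3 of other cation channels and calcium release, and the calls were all in the list of calcium channel partners, where 2 of 25 tested genes rose, 0 fell and 23 did not pass. In all tested genes, 1.14% rose. The list was chosen with earlier results of these data known, so no excess can be read from these shares. Rimbp2, a scaffold on chromosome 5 from 128757791 to 128953486 that ties presynaptic calcium channels to the release machinery, stood at 77.7, 80.6, 75.7 and 80.4 CPM in WT and at 116, 102, 105 and 119.7 CPM in KO replicates 1 to 4. Each KO library was at least 21.8 CPM above the highest WT library, and Rimbp2 rose 1.41-fold, at a log2 fold change of 0.49 (SE 0.05, edgeR adjusted p = 3.24e-05). Rrad, on chromosome 8 from 104628070 to 104631327, encodes a small GTPase that binds beta subunits and inhibits calcium channels. It stood at 1.51, 1.10, 1.80 and 1.75 CPM in WT and at 2.91, 4.71, 2.80 and 3.01 CPM in KO replicates 1 to 4. It rose 2.16-fold from a low level, at a log2 fold change of 1.11 (SE 0.21, edgeR adjusted p = 0.00952), and its groups did not overlap. The median log2 fold change of this list was 0.097 and 20 of 25 were positive, where 48.0% of all tested genes were. Among the subunits that Rimbp2 binds are Cacna1a and Cacna1b, given above with changes of -0.021 and 0.085. The L-type subunit Cacna1d, also given above, was at -0.15.

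The other lists gave 0 calls. Of 17 genes in the sodium channel list, Scn2a1 among them, with ankyrin, neurofascin and fibroblast growth factor homologous factors, the lowest p was that of Nedd4l, a ubiquitin ligase that removes sodium channels from the membrane. Nedd4l stood at 134, 124, 117 and 130.5 CPM in WT and at 151, 133, 147 and 147 CPM in KO replicates 1 to 4. Of the KO libraries, 3 were above all WT libraries. The log2 fold change of Nedd4l was 0.19 (SE 0.05, edgeR adjusted p = 0.0658). It passed with DESeq2 (adjusted p = 0.0324) and not with limma-voom (adjusted p = 0.0852). Of 6 HCN partners, which share Nedd4l with the former list, Kcne2 stood at 5.65 ± 0.743 CPM over the WT and at 4.92 ± 0.525 CPM over the KO libraries (SD, n = 4). The 4 tested genes of the NALCN sodium leak channel complex had log2 fold changes with a median of -0.01. Unc79, a member of the complex, stood at 82.7 ± 4.30 CPM over the WT and at 82.0 ± 3.10 CPM over the KO libraries (SD, n = 4). Unc80, of the same complex, stood at 446 ± 12.9 CPM over the WT and at 435 ± 9.08 CPM over the KO libraries (SD, n = 4). Among 11 genes of store-operated entry and calcium release, Ryr1, a ryanodine receptor, and Itpr3, an inositol trisphosphate receptor, had the lowest p, at -0.20 (SE 0.07) for Ryr1 and -0.27 (SE 0.11) for Itpr3 on the log2 scale (edgeR adjusted p = 0.229 and 0.329). Among 6 other TRP and two-pore channel genes, Tpcn2, a lysosomal channel, and Pkd2, polycystin, were at -0.38 (SE 0.11) and -0.14 (SE 0.05) on the log2 scale (edgeR adjusted p = 0.113 and 0.215).

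Markers of cell types and regions were read in the same fit. Beside the striatal ones, Emx1 of 8 excitatory neuron markers and Npy of 10 interneuron markers were higher. Dsp of 8 dentate gyrus markers and Slco1c1 of 10 endothelial and pericyte markers were lower. Among all tested genes, 1.14% were called higher and 0.289% lower, and 48.0% had a positive fold change. Purkinje cell markers gave 0 calls among 9, with summed levels of 2588 to 2997 CPM in WT and 2651 to 2917 CPM in KO libraries. All 10 endothelial and pericyte markers had negative fold changes, at a median of -0.15, and their summed levels did not overlap, at 387 to 414 CPM in WT and 348 to 376 CPM in KO libraries. Taken singly, 7.67% of all tested genes did not overlap. Granule cells of the cerebellum had 0 calls and 9 of 9 negative fold changes, at a median of -0.18. Oligodendrocytes (9 markers), their precursors (5), astrocytes (8) and sensory ganglia (7) gave 0 calls, at medians of -0.055, -0.053, -0.042 and -0.044. Of 6 pituitary markers 2 were tested, and the list summed to at most 4.40 CPM in any library. Their part in the channel levels was not tested.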

How the data were processed

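Polyadenylated RNA from brain was sequenced in 4 WT and 4 KO libraries made with a stranded kit, per the labels' protocols. The authors deposited estimated counts (expected counts) per gene, not scaled between libraries, and 91.5% of values were whole within 0.001. TopHat2 2.0.9, edgeR and the GRCm38 build are named in the submitters' processing notes with no role. How reads were assigned to genes, and with which strand rule, is not given in the sources used here. Of the 46 genes, 14 share exon bases with another gene in GENCODE M21, 12 of them on the opposite strand, so such reads cannot be told apart.

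Counts were rounded, filtered by filterByExpr, which left 15902 genes, and scaled by TMM. The test was the robust quasi-likelihood F-test of edgeR 4.0.16 in R 4.3.3. Its model held the group alone, and calls were made at a Benjamini-Hochberg adjusted p under 0.05, adjusted over all genes that passed the filter. SE and 95% intervals come from the fitted coefficient, its F statistic and the degrees of freedom. CPM use TMM-scaled library sizes. The test was checked on simulated counts, where 8 unchanged genes were called. The channel genes, partner lists and marker lists were chosen with earlier results of these data known. Genes given library by library are those past the threshold, the 2 of lowest p and the highest per kilobase in each family, those whose groups do not overlap, Scn1a and Cacna1a. From each partner list, calls or else the 2 of lowest p are named, beside Scn2a1. Others were named after their values were seen. Values of 4 of the 46 genes and of 1 partner gene are not reported here, though the genes stay in all counts, sums and medians. Alternatives were median-ratio and upper-quartile factors, DESeq2 1.42.0, limma-voom (limma 3.58.1), no filter on low counts, a filter of 1 CPM in 4 libraries, the replicate number as a block, GC and length trends removed, and leaving out libraries.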

Additional observations from a re-analysis of the deposited data

Results flagged for a closer look

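In 8 of the 118 sets of 4 libraries examined (46 genes and 13 summed levels in 2 groups), a single library stood apart, with a gap to its nearest neighbour, as a share of the range of the 4, above Dixon's 95% critical value. Chance flags about 1 set in 20. All 8 were KO libraries. KO replicate 4 stood above the other 3 KO libraries for Cacna1c (71.9 CPM against 59.0 to 60.6), Trpm7 (82.8 against 78.7 to 79.0), Cacnb2 (64.0 against 57.9 to 58.3) and Scn8a (387 against 355 to 359). KO replicate 2 stood below them for Trpc4 (14.1 CPM against 17.2 to 17.5) and Trpc6 (6.88 against 8.19 to 8.41). KO replicate 1 was low for Trpc2 (25.2 CPM against 29.0 to 29.4), and KO replicate 3 was low for Cacna2d2 (105.8 against 111 to 112).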

How the results depend on the processing

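The count of 0 channel genes past the threshold held in 16 of 17 alternatives, leaving out each of the 8 libraries among them (lowest and highest count 0). The exception was the fit with the replicate number as a block, which called 1 channel gene, 1 higher and 0 lower. This was Cacnb1, at a log2 fold change of 0.16 and an adjusted p of 0.0246, against 0.129 to 0.187 and up to 0.291 over all alternatives. Over all genes the block gave 495 calls in place of 228, and leaving out 1 library gave 110 to 324, the count being 110 when WT replicate 3 was left out, 130 for KO replicate 3 and 146 for KO replicate 4. Libraries with the same number correlated in their deviations from the group means at r = 0.208, 0.077, 0.024 and 0.067 for numbers 1 to 4, and 5 of the 8 libraries correlated best with their own number in the other group, while WT replicate 3 did so with KO replicate 2 (0.11). On the second principal component WT replicate 1 (20.95) and KO replicate 1 (13.09) were positive and the others negative. All 4 r of same-numbered libraries were positive, 3 of the 4 were under 0.1, and the labels tie no libraries together. The numbers were not taken to pair the libraries, though these values do not exclude a pairing. The median log2 fold change of the channel genes stayed between 0.006 and 0.0341.

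No gene that changed sign was called, 28 of the 46 genes kept their sign in every alternative, and 18 did not. With GC content and length trends removed, the log2 fold changes of Cacna1g, Cacnb3, Scn1a and Trpc1 became -0.0105, -0.016, 0.0017 and 0.0104, and with upper-quartile factors Cacna2d1 went to -0.0024. Without both libraries numbered 1, Cacna1a went to 0.0001, Trpv2 to -0.0167, Hcn3 to -0.0259, Trpc1 to 0.04 and Trpc7 to 0.0266. Leaving out 1 library changed the sign of Cacna1a (-0.048 to 0.0116), Cacna1g (-0.0157 to 0.0582), Cacna2d1 (-0.0503 to 0.061), Cacna2d3 (-0.0042 to 0.0903), Cacnb3 (-0.0128 to 0.069), Scn1a (-0.0664 to 0.0005), Scn2a1 (-0.0775 to 0.0117), Scn8a (-0.017 to 0.0323), Trpv2 (-0.0036 to 0.0705), Trpv4 (-0.1812 to 0.0185) and Unc79 (-0.0424 to 0.0186). It also turned Cacna1c (to -0.064 at most), Cacna1e (0.0432), Cacna2d4 (0.07), Cacnb4 (-0.0316), Hcn3 (-0.0322), Scn2b (-0.0071), Scn7a (-0.0291), Trpc1 (0.0414) and Trpc7 (0.0053). The cause was not tested. Nedd4l passed in 5 alternatives and Ryr1 with the block. Genes under 10 CPM, 11 of the 46, had SEs of 0.099 to 0.193, where those above had at most 0.094.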

Other observations

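Within a family, the share of each gene in the summed CPM per kilobase was also compared between libraries, as a description chosen after the values were seen. Of 45 shares, 3 had groups that did not overlap, or 6.67%, where the CPM of 7.67% of all tested genes did not overlap. Of these, 2 are Cacna1c and Cacna1d, which nearly add up to the whole L-type total and so are 1 observation. Among the L-type genes, the share of Cacna1c was 36.0%, 35.4%, 35.2% and 36.0% in WT and 38.4%, 38.4%, 37.2% and 38.8% in KO replicates 1 to 4. The share of Cacna1d was 61.9% ± 0.741 in WT and 59.4% ± 0.864 in KO libraries (SD, n = 4). Its groups were barely apart, with WT replicate 1 lowest in WT at 60.859% and KO replicate 3 highest in KO at 60.702%. The level of Cacna1c and Cacna1d moved together across libraries, with replicate 4 the highest KO library in both. Their shares varied less within a group than their levels did. Among the calcium channel beta genes, the share of Cacnb1 was 20.5% ± 0.984 in WT and 22.04% ± 0.178 in KO libraries. Here too the margin was narrow, with WT replicate 4 at 21.701% and KO replicate 3 at 21.778%. These shares were not tested.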
